A study of Rattus norvegicus with 6 samples.

Results

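The annexins are a family of calcium-regulated proteins that bind the inner face of cell membranes. They were followed here in whole kidneys of Dahl salt-sensitive (Dahl S) and Lewis rats, through every probe set whose only platform symbol was Anxa1, Anxa2, Anxa3, Anxa4, Anxa5, Anxa6, Anxa7, Anxa8, Anxa11 or Anxa13. This rule found 15 of the 31099 probe sets on the array, for 9 of the 10 genes, out of 14217 genes with a probe set of their own. Anxa13, an annexin of kidney and intestinal epithelium, has no probe set in the annotation used here. All 6 rats were male and ate a diet of 8% NaCl that began when they were 5 weeks old and lasted 8 weeks. There were 3 Dahl S rats, a strain that becomes hypertensive on a high-salt diet, and 3 Lewis rats, and each kidney RNA was hybridised to its own array. Neither strain was analysed here on another diet, so what the strains inherit and how each responds to salt cannot be told apart.

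An annexin carries a conserved core of repeats that docks on acidic phospholipids when calcium rises, and an N-terminal tail that differs between members and binds their partners. S100 proteins are the best known of these partners. Annexins take part in membrane repair, vesicle traffic, the control of inflammation and fibrinolysis at the cell surface, and annexin A5 is widely used to stain phosphatidylserine on dying cells. In the kidney they are found in tubular epithelium, vessels, interstitial cells and leukocytes.

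The members were chosen by gene symbol, but the family was proposed with its Dahl S against Lewis signal differences already known, and that comparison is the only one in the study. The annexin differences below are therefore descriptions, with no p-value. Signals are the deposited intensities after quantile normalisation, which gives all arrays the same distribution of values. Differences are Dahl S minus Lewis on the log2(signal + 16) scale, with the standard error (SE) of the limma model and n = 3 arrays a strain. A probe set entered the model if it was above the median of all values (a normalised signal of 61.8) on at least 3 arrays. Of the 15 annexin probe sets 9 did so, for 8 genes, and each of the 9 was above that level on all 6 arrays.

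Before normalisation the 2% trimmed mean signal was 205 to 250 on Dahl S arrays and 119 to 230 on Lewis arrays, with Lewis array 1 the dimmest. Over all 15778 probe sets tested, 1342 were higher and 1219 lower in Dahl S at a limma adjusted p under 0.05. With scaling to a common median these counts were 1312 and 706, and in the deposited values without normalisation 666 and 47. Signal at the 3' end of the array's rat control transcripts, relative to the 5' end, differed between strains by -0.03 for Gapdh, -0.04 for beta-actin and 0.14 for hexokinase (Dahl S minus Lewis, log2). Umod, a defining kidney gene of the loop of Henle, had signals of 9615.5 to 9742 in Dahl S and 9501 to 9615.5 in Lewis. Quantile normalisation puts the same top values on each array, so the likeness of values this high does not compare the strains.

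By their brightest probe sets, Anxa1, Anxa5, Anxa2, Anxa3 and Anxa7 had higher signals in every Dahl S kidney than in any Lewis kidney, by 1.26-fold to 1.64-fold. The same held narrowly for Anxa4, by 1.21-fold, but its second tested probe set overlapped. Anxa6 and Anxa11 had overlapping signals in the strains. Of the 9 tested annexin probe sets 5 passed the limma threshold towards higher values in Dahl S, where 8.51% of all tested probe sets did, and 0 towards lower values, where 7.73% did. The count of 5 was 3 without Dahl S array 2 or Dahl S array 3, where Anxa3 and Anxa7 no longer passed, and 2 without normalisation, where Anxa1 and Anxa5 passed. At an unadjusted p under 0.05 the limma counts were 6 higher and 0 lower, and no share of all tested probe sets was computed at that looser threshold. In either direction 16.2% of all tested probe sets passed the adjusted threshold. The strain ranges did not overlap for 6 of the 9, all higher in Dahl S, where 17.6% of all tested probe sets had higher ranges without overlap and 34.5% had no overlap in either direction. The median difference of the 9 was 0.34, against 0.001 over all tested probe sets. These counts describe members proposed from this comparison and support nothing further. In whole-kidney RNA, more cells of a type and more RNA per cell cannot be told apart.

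**Figure D1:**
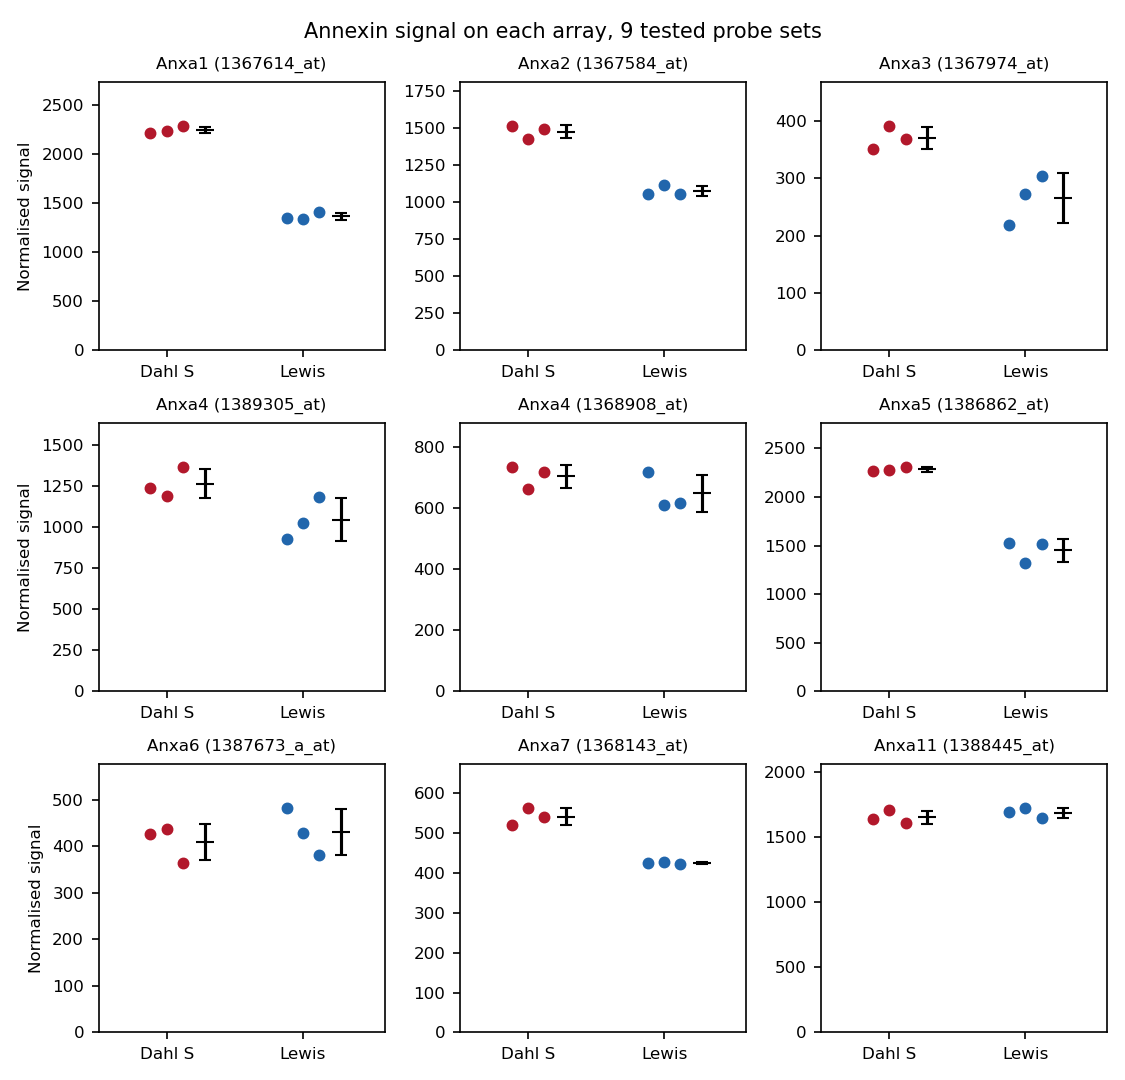
Normalised signal (y axis, linear, from 0) of the 9 tested annexin probe sets on each array, with Dahl S in red on the left and Lewis in blue on the right. Points are arrays 1, 2 and 3 from left to right, and the black mark is the mean ± SD (n = 3). The Anxa1, Anxa2, Anxa3, Anxa5 and Anxa7 points of Dahl S lie above those of Lewis, as do, narrowly, those of the brighter Anxa4 probe set. The points of the other Anxa4 probe set, Anxa6 and Anxa11 overlap. Heights of different probe sets are not comparable.

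Annexin A1 is a glucocorticoid-regulated protein that restrains inflammation, released from cells to act on formyl peptide receptors. Anxa1 (probe set 1367614_at) had normalised signals of 2209.7, 2234 and 2278 on Dahl S arrays 1, 2 and 3, against 1347, 1337 and 1404 on Lewis arrays 1, 2 and 3. All 3 Dahl S kidneys were high, and after normalisation the arrays of each strain lay close together. The deposited signals behind these values were spread more widely, at 2511, 2740 and 2351 in Dahl S and 811, 1603 and 1283 in Lewis. The normalised mean was 2241 ± 34.8 in Dahl S and 1362 ± 36.1 in Lewis (SD, n = 3 each). This was the largest difference among the 15 annexin probe sets, 0.71 (SE 0.06, 1.64-fold), and 97.9% of all tested probe sets had a lower one.

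Annexin A5 binds phosphatidylserine with high affinity and can form an ordered lattice on membranes. Anxa5 (1386862_at) had signals of 2263, 2281 and 2306 in Dahl S kidneys, against 1523, 1317 and 1516 in Lewis kidneys. The Dahl S arrays were almost level, while Lewis array 2 lay below the other two Lewis arrays. The difference was 0.65 (SE 0.07, 1.57-fold), and it ran from 0.58 to 0.69 when any 1 array was left out.

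Annexin A2 forms a tetramer with the S100A10 protein that links membranes to actin and brings plasminogen and its activator together at the cell surface. Anxa2 (1367584_at) had signals of 1513, 1426 and 1494 in Dahl S kidneys, against 1059, 1117 and 1055 in Lewis kidneys. The strains were separated by more than the range within either of them. The difference was 0.45 (SE 0.07, 1.37-fold). A second Anxa2 probe set, 1392250_at, was far below the filter at 11.5, 12.7 and 8.79 in Dahl S and 19.2, 23.1 and 27 in Lewis, and it ran the opposite way. Its difference of -0.53 depends on the pseudocount, being -1.01 with a pseudocount of 1 and -0.22 with 64. The RefSeq gene table lists 8 pseudogenes named after Anxa2 and 4 named after Anxa7, and whether their transcripts reach these probe sets was not tested.

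Annexin A3 is abundant in neutrophils and is also made by epithelia. Anxa3 (1367974_at) had signals of 352, 391 and 369 in Dahl S kidneys, against 219, 273 and 305 in Lewis kidneys. The Lewis arrays spread widely, with array 1 lowest. The difference was 0.47 (SE 0.12, 1.38-fold), and 0.34 without Lewis array 1. It did not pass the threshold without Dahl S array 2 or 3. The other 3 Anxa3 probe sets were dim and did not share a direction. Probe set 1367975_at had 25.0, 14.1 and 19.3 in Dahl S against 10.9, 6.36 and 9.97 in Lewis. Both 1395313_s_at and 1380751_at overlapped between strains. By the naming of the array design, the suffix of 1395313_s_at marks probes that match several transcripts.

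Annexin A7, also called synexin, promotes the fusion of membranes and has a long N-terminal tail. Anxa7 (1368143_at) had signals of 519, 562 and 541 in Dahl S kidneys, against 425, 427.5 and 421 in Lewis kidneys. The strains did not overlap, and the 3 Lewis kidneys lay closest together of any group of the 9 tested probe sets (SD 3.14 signal units, 0.010 on the log2 scale). The difference was 0.34 (SE 0.08, 1.26-fold), and it did not pass the threshold without Dahl S array 2 or 3. Its second probe set, 1368142_at, was dim and overlapped, with 40.4, 36.4 and 41.9 in Dahl S against 78.4, 33.5 and 31.9 in Lewis, where array 1 alone was high.

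Annexin A4 lies under the plasma membrane of epithelial cells and has been linked to chloride conductance. It was measured by a pair of bright probe sets. The brighter, 1389305_at, had 1239, 1189 and 1362 in Dahl S kidneys, against 927, 1026 and 1181 in Lewis kidneys. These ranges were separated only narrowly, between Dahl S array 2 and Lewis array 3. The difference was 0.28 (SE 0.09, 1.21-fold), and it did not pass the threshold. The other, 1368908_at, had 733, 662 and 717 in Dahl S against 718, 609 and 617 in Lewis, overlapping through Lewis array 1, with a difference of 0.12 (SE 0.09).

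Annexin A6 has a duplicated core and takes part in endocytosis and cholesterol traffic. Anxa6 (1387673_a_at) had 427, 437 and 364 in Dahl S kidneys, against 482, 428 and 382 in Lewis kidneys, a difference of -0.07 (SE 0.11). Annexin A11 binds S100A6 and the penta-EF-hand protein ALG-2, and tethers RNA granules to lysosomes. Anxa11 (1388445_at) had 1642, 1707 and 1608 in Dahl S, against 1692, 1723 and 1649.6 in Lewis, a difference of -0.03 (SE 0.06). The ranges of both genes overlapped. Their sign is not fixed: with scaling to a common median Anxa6 was at 0.03, and without normalisation Anxa6 was at 0.37 and Anxa11 at 0.34, where the median of all tested probe sets was at 0.41.

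Annexin A8, an anticoagulant annexin best known from skin and other squamous epithelia, did not reach the filter. Anxa8 (1373654_at) had 36.1, 44.1 and 43.5 in Dahl S kidneys, against 50.5, 62.8 and 56.1 in Lewis kidneys. Every Dahl S value was below every Lewis value. The difference was -0.34, and -0.04 without normalisation. It had no test, because it was above the median of all values on 1 array alone. In all, the 6 annexin probe sets below the filter had normalised signals between 6.36 and 78.4.

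**Figure D2:**
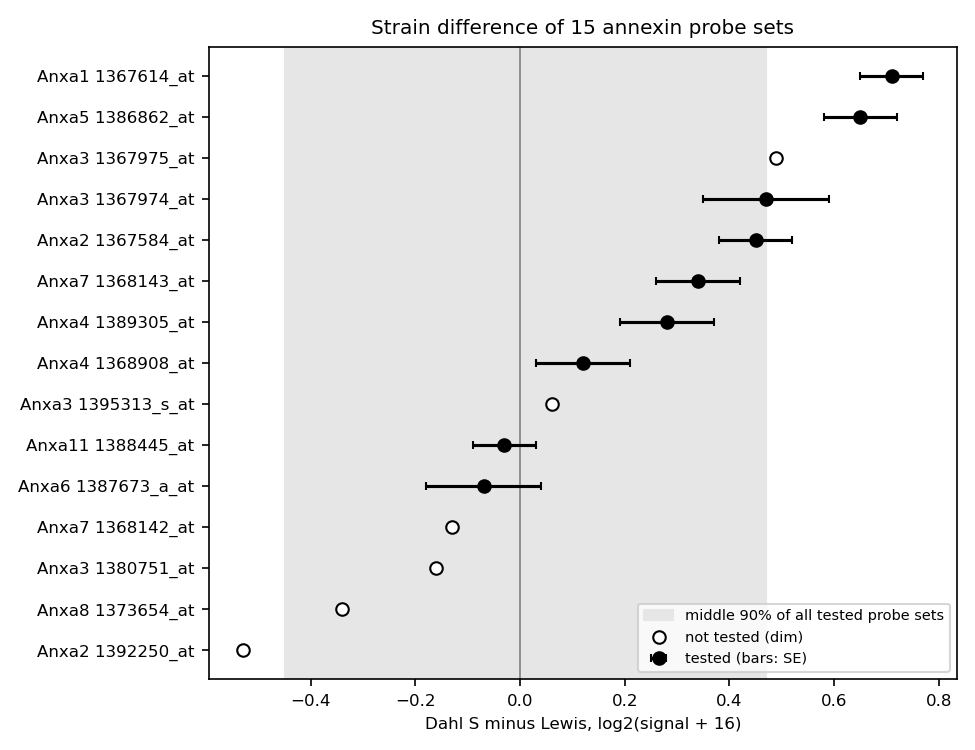
Difference Dahl S minus Lewis (x axis, log2(signal + 16)) of all 15 annexin probe sets, in order of size. Filled points are tested probe sets with their SE, open points are dim probe sets without a test, and the grey band spans the 5th to the 95th percentile of all tested probe sets (-0.45 to 0.47). Anxa1, Anxa5 and a dim probe set of Anxa3 lie beyond the band on the right, and the dim second probe set of Anxa2 beyond it on the left.

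Set in order of the difference, the brightest probe sets of the genes run Anxa1, Anxa5, Anxa3, Anxa2, Anxa7, Anxa4, Anxa11 and Anxa6. Neighbours in this order differ by no more than the larger of their SEs from Anxa1 to Anxa5, from Anxa3 to Anxa2, from Anxa7 to Anxa4 and from Anxa11 to Anxa6. The SD over arrays of a strain, on the log2 scale, was 0.013 to 0.137 in Dahl S and 0.010 to 0.230 in Lewis. The median SD of the 9 probe sets was 0.056 in Dahl S and 0.118 in Lewis, against 0.088 in Dahl S and 0.137 in Lewis over all tested probe sets. Anxa3, the brighter Anxa4 probe set and Anxa6 spread more than that Lewis median among Lewis arrays (0.230, 0.173 and 0.161).

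**Figure D3:**
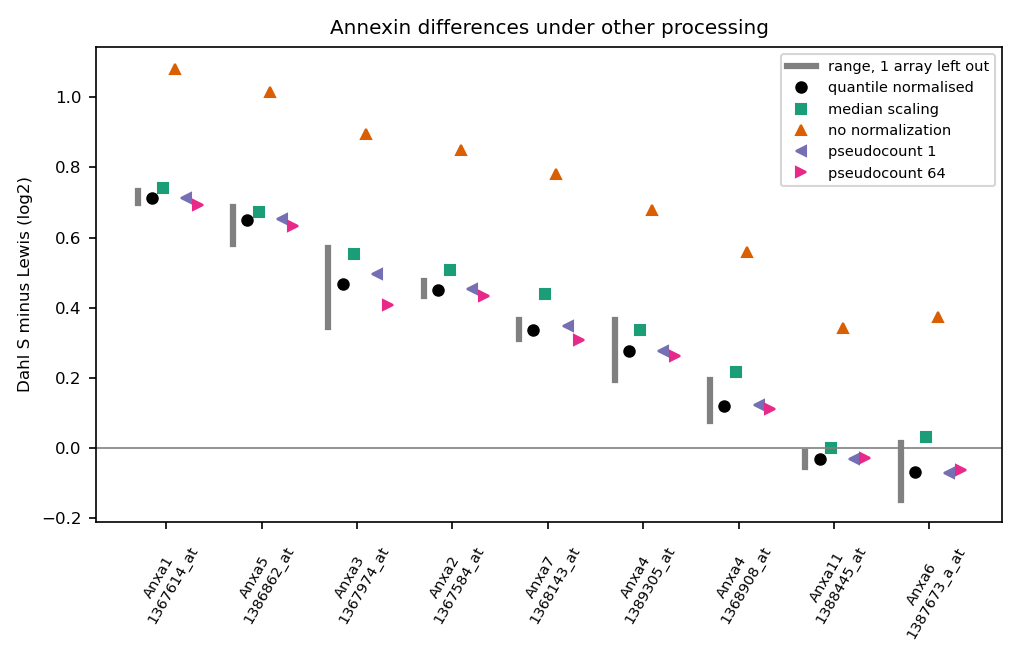
Difference Dahl S minus Lewis (y axis, log2) of the 9 tested annexin probe sets under other processing, with grey bars for the range when any 1 array was left out. Values without normalisation sit above all others, for Anxa1 at 1.08 and for Anxa11 at 0.34. Anxa1 and Anxa5 are the highest and Anxa6 and Anxa11 the lowest in each setting marked by a symbol.

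The genes whose array profiles lay nearest to the leading annexins were sought among 9489 other genes, by the root mean square difference of centred log2 values over the 6 arrays. Nearest to Anxa1 were Ly86, a partner of the immune receptor RP105 (0.038), Prom1, a membrane protein of epithelial progenitors (0.040), and Fam3c (0.049). Ly86 had signals of 190, 194 and 205 in Dahl S against 108, 103 and 115 in Lewis. Nearest to Anxa5 were Itga1, the alpha chain of a collagen-binding integrin (0.049), Hmgn3 (0.052) and Rasd1 (0.053). Itga1 had 456, 484 and 515 in Dahl S against 309, 262 and 318 in Lewis. Rasd1 had 92.6, 93.8 and 90.4 in Dahl S against 50, 44.2 and 55.3 in Lewis. It reached the filter through the Dahl S arrays alone. With 2 strains, nearness mostly says that genes share the size of the strain difference.

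The sequence before the start site was compared for Anxa1, Anxa2 and Anxa5, which passed the threshold whichever array was left out, and for Anxa11, whose difference was near 0. RefSeq promoter windows of the GRCr8 assembly were found for 8 of the 9 measured genes, and 250 bases before the start are shown 5′ to 3′. They lie at chr1:227303733-227303982 (- strand) for Anxa1, chr8:78986002-78986251 (+ strand) for Anxa2, chr2:121272697-121272946 (- strand) for Anxa5 and chr16:1419484-1419733 (+ strand) for Anxa11. Capitals mark matches, on either strand, to the letters TATAAA of the TATA box, GGGCGG of the GC box, CCAAT of the box of that name and TGANTCA of the AP-1 site. A match on the other strand shows as the reverse complement.
Anxa1: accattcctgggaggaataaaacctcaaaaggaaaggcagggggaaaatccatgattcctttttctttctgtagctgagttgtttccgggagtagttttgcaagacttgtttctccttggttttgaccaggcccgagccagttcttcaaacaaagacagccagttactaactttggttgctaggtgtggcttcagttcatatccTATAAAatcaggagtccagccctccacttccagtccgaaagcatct
Anxa2: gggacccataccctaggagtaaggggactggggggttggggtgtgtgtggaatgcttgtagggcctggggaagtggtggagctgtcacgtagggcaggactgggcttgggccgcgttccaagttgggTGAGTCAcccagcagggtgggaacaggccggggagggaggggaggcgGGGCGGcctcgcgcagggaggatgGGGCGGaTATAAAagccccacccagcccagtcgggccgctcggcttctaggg
Anxa5: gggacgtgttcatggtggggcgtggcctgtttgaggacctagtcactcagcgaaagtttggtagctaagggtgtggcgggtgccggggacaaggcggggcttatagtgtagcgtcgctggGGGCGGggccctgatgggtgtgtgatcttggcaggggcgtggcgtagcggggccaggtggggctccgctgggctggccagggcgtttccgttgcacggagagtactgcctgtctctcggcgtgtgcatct
Anxa11: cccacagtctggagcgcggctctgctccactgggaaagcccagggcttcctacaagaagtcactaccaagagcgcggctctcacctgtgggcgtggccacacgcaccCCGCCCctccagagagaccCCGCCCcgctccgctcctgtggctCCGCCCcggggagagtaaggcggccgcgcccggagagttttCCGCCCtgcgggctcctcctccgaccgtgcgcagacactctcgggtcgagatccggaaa
The TATA box letters stood in Anxa1, starting 46 bases before the start, and in Anxa2, starting 45 bases before it, and in no other of the 8 windows. They occur in 12.9% of 33469 windows of the same length. GC boxes stood in 5 of the 8 windows (Anxa2, Anxa3, Anxa4, Anxa5 and Anxa11), 4 of them in Anxa11, against 30.5% of all windows. The AP-1 letters, bound by Fos and Jun proteins, stood in Anxa2 alone (6.34% of all windows), and the CCAAT box in Anxa4 and Anxa7 (34% of all windows). The 4 motifs did not overlap in the windows shown. The windows of the annexins that differed held no motif in common among these letters: Anxa1 held a TATA box without GC box, Anxa5 a GC box without TATA box, and Anxa2 both. A match is a run of letters and not a measured site.

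Genes that work with annexins were read from 7 lists of 69 genes, none of them annexins, of which 59 had a probe set and 43 were tested. The probe set with the highest mean stood for a gene. Counts at an unadjusted p under 0.05 in limma are also given for the lists. No share of all genes was computed at that looser threshold to set beside them. Of the 43 genes 7 were higher and 2 lower in Dahl S by limma (adjusted p under 0.05 over all probe sets), where 9.04% and 7.59% of all genes tested were, 16.6% in either direction. Of the 7, Havcr1 reached the filter through the Dahl S arrays, with 1 Lewis array above it; without it 6 of 42 were higher. S100a10 and S100a11, whose proteins bind annexins A2 and A1, were among the 7.

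The S100 list had 7 tested genes, of which 2 rose and 0 fell (3 higher and 0 lower at an unadjusted p under 0.05 in limma). The list median was 0.13. Of the 5 that did not pass, S100a4 and S100a1 were at -0.09 and -0.02. S100a16, S100a13 and S100a6 were at 0.04, 0.13 and 0.21. S100a10, a partner of annexin A2, had signals of 2037, 1883 and 1962 in Dahl S kidneys, against 1322, 1235 and 1337 in Lewis kidneys. The strains did not overlap, and the difference was 0.59 (SE 0.07, limma adjusted p = 7.3e-05). S100a11, which binds the tail of annexin A1, had 3811, 3771 and 3478 in Dahl S, against 2904, 2664 and 2573 in Lewis. It rose by 0.44 (SE 0.06, limma adjusted p = 5.5e-04). S100a6, a partner of annexin A11, had 1469.6, 1475 and 1418 in Dahl S, against 1168, 1437 and 1181 in Lewis. Its ranges overlapped through Lewis array 2, and the difference of 0.21 (SE 0.08) did not pass (limma adjusted p = 0.12). Without Lewis array 2 it was 0.30 (limma adjusted p = 0.017), and over all settings the adjusted p of S100a6 was 0.017 to 0.29.

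Phosphatidylserine, the lipid that annexin A5 binds, is moved between membrane faces by scramblases and flippases and read by receptors on engulfing cells. This list had 13 tested genes, of which 5 rose and 0 fell (7 higher and 1 lower at an unadjusted p under 0.05 in limma), with a median of 0.18. Without Havcr1 it was 4 of 12. The receptor kinase gene Axl had 451, 428 and 441 in Dahl S kidneys, against 227, 240.3 and 241 in Lewis kidneys, and rose by 0.86 (SE 0.08, limma adjusted p = 2.8e-05). Its bridging ligand Gas6 differed by 0.28 (SE 0.08, limma adjusted p = 0.029), but its other probe sets gave -0.29 and -0.31. The phospholipid scramblase family gene Plscr1 had 372, 339 and 361 in Dahl S, against 264, 232 and 255 in Lewis, and rose by 0.49 (SE 0.09, limma adjusted p = 0.0032).

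The calcium-activated scramblase gene Ano6 rose by 0.26 (SE 0.06, limma adjusted p = 0.014). Havcr1, a phosphatidylserine receptor of injured tubule cells, was also in this list, at 605, 608 and 552 in Dahl S against 38.7, 58.2 and 75.6 in Lewis. The receptor kinase gene Mertk, a relative of Axl, differed by -0.33 (SE 0.12, limma adjusted p = 0.073, and 0.047 without Lewis array 1). The calls of Ano6 and Gas6 were lost without any 1 Dahl S array, with scaling to a common median and without a variance trend (limma adjusted p = 0.058 to 0.13), and that of Gas6 also without Lewis array 2 (0.080). Without normalisation the 2 calls left among the 43 genes were those of Axl and Havcr1.

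The plasminogen, phospholipase A2, membrane repair and copine lists had 2 called genes, both lower in Dahl S. In the plasminogen list 0 of 5 tested genes rose and 1 fell (0 and 1 at an unadjusted p under 0.05 in limma). The gene that fell was Plat, tissue plasminogen activator, with 652, 688 and 640.0 in Dahl S against 803, 906 and 746 in Lewis. Its difference of -0.30 (SE 0.09, limma adjusted p = 0.033) was lost when Lewis array 2 or any single Dahl S array was dropped, where the adjusted p was 0.068 to 0.14. It was lost too without a filter, without a variance trend and with scaling to a common median (0.061 to 0.34), and the difference was 0.13 without normalisation. Of 5 tested phospholipase A2 genes, enzymes that annexins were first said to inhibit, 0 rose and 1 fell (1 and 1 at an unadjusted p under 0.05 in limma). This was Pla2g12a, a secreted phospholipase gene, at 157, 135 and 144 in Dahl S against 332, 279 and 293 in Lewis (-0.97, SE 0.10, limma adjusted p = 4.8e-05). Of 10 tested genes of membrane repair and caveolae 0 passed in either direction (0 higher and 2 lower at an unadjusted p under 0.05 in limma). Among them the repair protein gene Dysf, dysferlin, differed by 0.10 (SE 0.11) and the caveolin gene Cav1 by -0.08 (SE 0.10). Of 3 tested copines, another family of calcium-dependent phospholipid-binding proteins, 0 passed by the brightest probe set (0 at an unadjusted p under 0.05 in limma). A dimmer probe set of Cpne8 did pass, at 78.9, 99.4 and 111 in Dahl S against 68.5, 50.8 and 62.4 in Lewis (0.55, SE 0.15, limma adjusted p = 0.026). The brightest Cpne8 probe set differed by 0.23 (SE 0.14, limma adjusted p = 0.29). The 4 listed formyl peptide receptor genes had no probe set in the annotation used here.

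**Figure D4:**
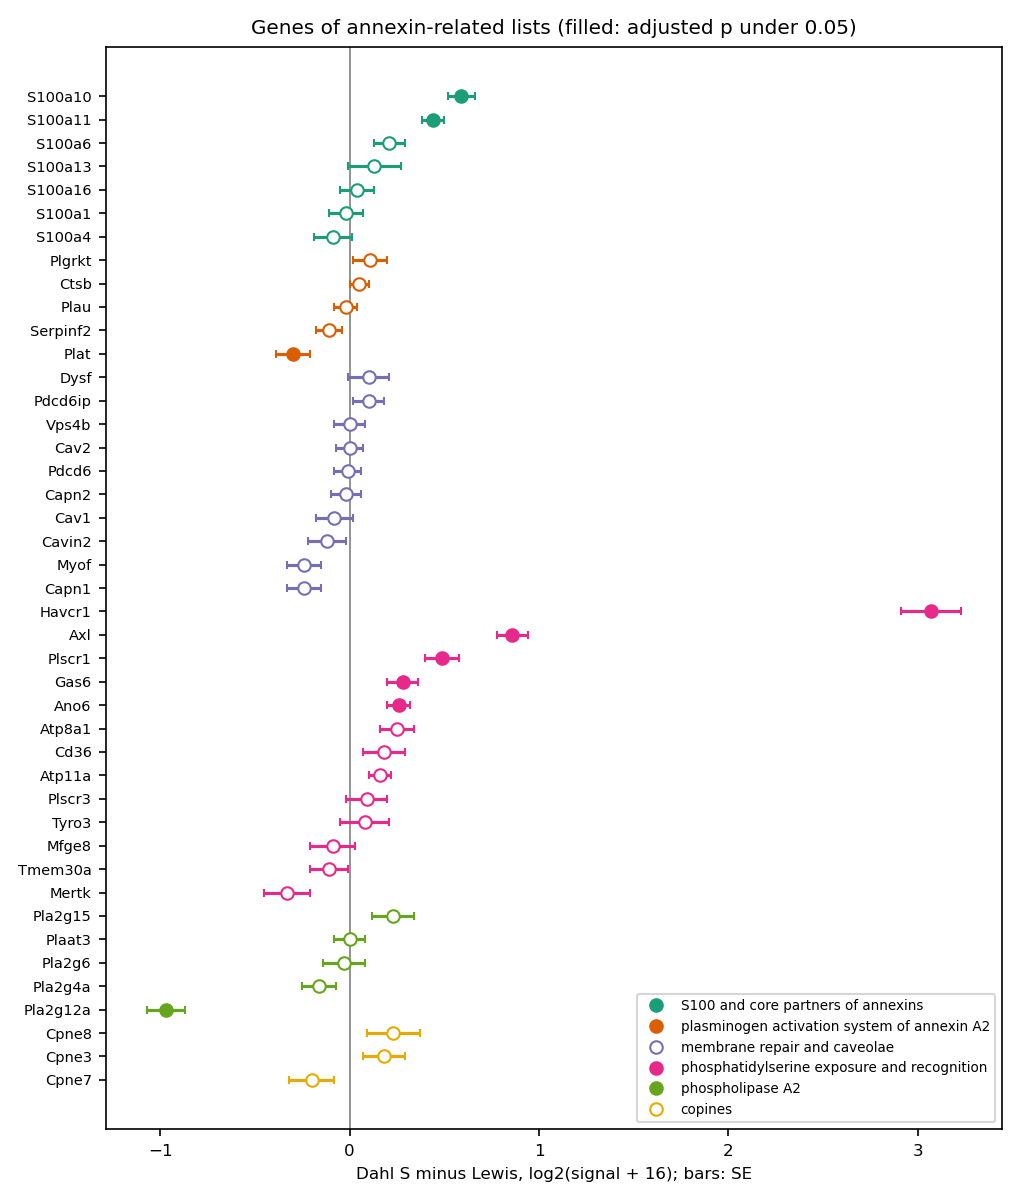
Difference Dahl S minus Lewis (x axis, log2(signal + 16), bars SE) of the 43 tested genes of the annexin-related lists, coloured by list. Filled points passed a limma adjusted p under 0.05. S100a10, S100a11, Axl, Plscr1, Gas6, Ano6 and Havcr1 are filled on the right, and Pla2g12a and Plat on the left.

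Markers of several cell types of the kidney differed between the strains, in both directions. For comparison, 9.04% of all genes tested were higher and 7.59% lower in Dahl S by limma (adjusted p under 0.05), 16.6% in either direction. No share of all genes was computed at an unadjusted p, for these lists or those above. The sums below weigh each gene by the brightness of its probe set, and are not a measure of cell number. Of 9 tested leukocyte and macrophage genes 7 were higher in Dahl S and 0 lower (7 and 0 at an unadjusted p under 0.05 in limma), and the summed signal of all 10 genes with a probe set was 9944 to 10419 in Dahl S and 8226 to 8848 in Lewis. Most of that sum was Cd74, which did not pass (0.14, SE 0.07), and Lyz2 (0.23, SE 0.05), while the leukocyte gene Ptprc, at 200.4, 224 and 210 in Dahl S against 97.7, 92.2 and 112 in Lewis, differed by 0.97 (SE 0.11). Of 8 tested genes of the injured tubule 6 were higher and 0 lower (6 and 1 at an unadjusted p under 0.05 in limma; 5 of 7 without Havcr1), with sums of 17401 to 17796 in Dahl S and 9874 to 10709.7 in Lewis. The largest part of that sum was Spp1 (0.89, SE 0.07). Krt18 (-0.24, SE 0.09) and Krt8 (0.12, SE 0.08) did not pass. Of 7 genes of fibroblasts and smooth muscle 4 were higher and 0 lower (4 and 0 at an unadjusted p under 0.05 in limma), with sums of 5943 to 6072 in Dahl S and 3406 to 4208 in Lewis. The 4 were Col1a1, Col3a1, Dcn and Tagln, and most of the sum was Dcn and Col3a1. Acta2, Myh11 and Pdgfrb differed by 0.01, 0.04 and 0. All 3 red cell genes were higher, with sums of 5717 to 6225 in Dahl S and 3973 to 5138 in Lewis.

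The lists of nephron segments, vessels and podocytes had genes called lower or none called, where 7.59% of all genes tested were called lower. With so few genes a list, 1 or 2 calls say little about a cell type. Of 6 proximal tubule genes 0 were higher and 2 lower (0 and 2 at an unadjusted p under 0.05 in limma), with sums of 23180.0 to 23446 in Dahl S and 25311 to 25862 in Lewis. Of 4 podocyte genes 2 were lower and 0 higher (2 and 0 at an unadjusted p under 0.05 in limma), with sums of 1411 to 1451 in Dahl S and 1821 to 1876 in Lewis, and 2 of 5 endothelial genes were lower and 0 higher (4 and 0 at an unadjusted p under 0.05 in limma), with sums of 2469 to 2609 in Dahl S and 2956 to 3065 in Lewis. Of 6 collecting duct genes 1 was lower and 0 higher (3 and 0 at an unadjusted p under 0.05 in limma), with sums of 6014 to 6055 in Dahl S and 6562 to 7280 in Lewis. The 2 loop of Henle genes did not pass (0 at an unadjusted p under 0.05 in limma), with sums of 13061 to 13244 in Dahl S and 12624 to 13152 in Lewis. Most of these sums was Umod, whose values are largely set by the normalisation. The 2 tested distal tubule genes did not pass (0 higher and 1 lower at an unadjusted p under 0.05 in limma), with sums over 3 genes of 5654 to 5895 in Dahl S and 6122 to 6993 in Lewis. The neutrophil genes S100a8 and S100a9 were below the filter in both strains, with summed signals of 19.2 to 40.4 in Dahl S and 3.08 to 11.4 in Lewis. No marker gene was at 0 on all 6 arrays. The part of these cell types in the annexin differences was not tested.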

How the data were processed

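RNA from 1 kidney sample per rat, 3 Dahl S and 3 Lewis, went onto 1 array each, and strain and replicate number were taken from the sample titles. The deposited values are linear signal intensities, which the authors computed with GeneChip Operating Software version 1.4 per the labels. No scaling target or detection call is given in the sources used here. The arrays were not at a common level, so log2(signal + 16) was quantile normalised. A normalised signal is that value turned back to the linear scale. The number of arrays limits the precision: exact permutation of 3 against 3 cannot give a p below 0.1.

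Probe sets were named from the platform annotation, updated by gene identifier to a RefSeq gene table (GRCr8). Leaving out 57 control probe sets, 20826 had 1 symbol, 436 several and 9780 none, and no gene was named from several. The strains were tested two-sided with limma 3.58.1 under R 4.3.3, with eBayes fitting a trend of variance on level. Adjusted p-values are Benjamini-Hochberg values over 15778 probe sets, and the threshold was 0.05. The steps were tested on simulated data.

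The annexins, the lists and the tests were chosen with earlier results of these data known. Named were all 10 annexins, every member of the annexin partner lists past the threshold, S100a6 and the 3 genes nearest to each of the 2 leading annexins. Other genes were named after their values were seen.

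Same-numbered arrays of the strains did not deviate together, so no block was used. Alternatives were median scaling, no normalisation, pseudocounts of 1 and 64, no filter, a stricter filter, no variance trend, the replicate number as a block, each array left out and, for lists, averaging the probe sets of a gene.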

Additional observations from a re-analysis of the deposited data

How the results depend on the processing

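Of 210 annexin differences recomputed under the alternatives, 189 moved by less than the spread between arrays, 21 moved by more and 0 of those past the threshold changed sign. The changes of filter, of variance trend and of block alter the test but cannot move a difference. Their share of the 189 was therefore fixed in advance and says nothing on stability. The same holds for leaving out 1 array, as the arrays were not normalised again. Dropping 1 of 3 arrays moves a strain mean by less than the spread used here. The 21 that moved all came from median scaling, no normalisation or another pseudocount. Without normalisation, where the median of all tested probe sets was 0.41 higher in Dahl S, 666 probe sets were called higher and 47 lower, 2 annexin probe sets (Anxa1 and Anxa5) were called higher, and 2 list genes were called higher and 0 lower. With median scaling 706 probe sets and 1 list gene were called lower. The list genes called lower also numbered 1 without a filter and 1 without a variance trend. Counting only list genes above the filter on all 6 arrays, chosen after seeing the data, gave 6 higher and 2 lower. With 1 array left out, calls ran from 762 to 1444 higher and 723 to 1339 lower over all probe sets, from 3 to 6 annexin probe sets higher with 0 lower, and from 5 to 8 list genes higher and 1 to 3 lower. The annexin count was 3 without Dahl S array 2 or Dahl S array 3, where Anxa3 and Anxa7 no longer passed. Over all probe sets the calls higher fell to 803, 833 and 762, and those lower to 774, 801 and 723, without Dahl S arrays 1, 2 and 3.

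Deviations from the strain means correlated between same-numbered arrays at -0.046, -0.098 and 0.112 over the tested probe sets, so the numbers did not pair the arrays. With the replicate block 6 annexin probe sets were called higher, the sixth being Anxa4 (1389305_at), and 1290 probe sets were called higher and 1195 lower in all. Dim probe sets limit what is known of Anxa8 and of the further Anxa2, Anxa3 and Anxa7 probe sets.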

Other observations

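Anxa9, an annexin outside the family list used above, has a pair of probe sets in the annotation, both below the filter. Probe set 1381223_at had normalised signals of 22.4, 28 and 24.2 in Dahl S kidneys, against 39.2, 18.8 and 25.9 in Lewis kidneys. Probe set 1395466_at had 26.2, 10.7 and 17.9 in Dahl S, against 9.68, 41 and 24.2 in Lewis. The strains overlapped in both.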
